A study of Mus musculus with 8 samples.

Results

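The genes examined were those of dendritic cell (DC) costimulation and maturation, Cd80, Cd86, Cd40, Cd83, Cd274, Pdcd1lg2 and Icosl, which is 7 of 22367 protein-coding genes on the chromosomes of mm9. The list was set by the known roles of these genes in costimulation, with earlier results of these data known, and no measured value enters the rule. The cells were D1, a long-term DC line from the spleen of C57BL/6 mice, so every library comes from a single cultured line and not from DCs taken from animals. H3K4me3 ChIP-seq was carried out in non-treated (NT) cells, in cells given 10 μg/ml curdlan for 2 h, and in cells given curdlan with FK506 (curdlan+FK506) for 2 h, and the FK506 dose of these libraries is not given in the sources used here. A further ChIP-seq experiment recovered NFATc2, written NFAT1 in the labels, with an antibody to its V5 tag after 30 min of 10 μg/ml curdlan, in D1 cells that carried the tagged protein on a lentiviral vector in addition to their own NFATc2 and were sorted for it by a GFP reporter. One ChIP library and its input stood for each condition. There were no replicates, so no test between conditions was possible, and the intervals given below cover counting error only.

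A T cell needs a second signal beside its antigen receptor. CD80 and CD86 (B7-1 and B7-2) give it through CD28, and the same ligands restrain the T cell through CTLA-4. CD40 on the DC receives the CD40 ligand of helper T cells, CD83 marks mature DCs and keeps MHC class II and CD86 at their surface, ICOSL engages ICOS, and PD-L1 (Cd274) and PD-L2 (Pdcd1lg2) engage the inhibitory receptor PD-1. Curdlan is a β-glucan that binds dectin-1, which signals through Syk to NF-kB and, by way of calcium and calcineurin, to NFAT, and FK506 inhibits calcineurin. H3K4me3 is a histone mark found at the starts of active and poised genes. In a bulk library, fewer cells carrying a mark and less mark per cell cannot be told apart.

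The sequences below are the NFATc2 sites on which the account of binding turns, each as the 201 bases centred on the summit of a peak (the position with the most ChIP signal), read from mm9. They are shown because 5 of them are the nearest site to a gene and because the sites in Cd86, in Cd83, before Pdcd1lg2 and after Icosl lie in H3K4me3 peaks. Capitals mark GGAAAA, the core bound by NFAT, or its reverse complement TTTTCC. None of these 8 windows overlaps an annotated exon.
Cd86 intron, chr16:36663706-36663906, plus strand: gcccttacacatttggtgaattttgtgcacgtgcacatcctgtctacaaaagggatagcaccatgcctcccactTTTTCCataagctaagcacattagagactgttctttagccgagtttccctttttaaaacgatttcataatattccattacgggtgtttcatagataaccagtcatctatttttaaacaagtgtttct
Cd83 intron, first site, chr13:43884448-43884648, plus strand: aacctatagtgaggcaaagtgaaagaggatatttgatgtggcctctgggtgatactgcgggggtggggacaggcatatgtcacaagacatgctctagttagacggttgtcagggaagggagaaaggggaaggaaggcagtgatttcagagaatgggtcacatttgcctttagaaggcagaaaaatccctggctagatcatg
Cd83 intron, second site, chr13:43886052-43886252, plus strand: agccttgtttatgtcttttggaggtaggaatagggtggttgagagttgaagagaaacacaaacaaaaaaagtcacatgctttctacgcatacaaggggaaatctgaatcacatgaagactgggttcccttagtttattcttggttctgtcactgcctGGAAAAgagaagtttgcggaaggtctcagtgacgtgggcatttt
Cd80 upstream, chr16:38442266-38442466, plus strand: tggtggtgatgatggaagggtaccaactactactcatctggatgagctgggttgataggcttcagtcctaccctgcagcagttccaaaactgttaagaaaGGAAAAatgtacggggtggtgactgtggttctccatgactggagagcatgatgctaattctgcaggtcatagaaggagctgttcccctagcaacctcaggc
Cd40 upstream, chr2:164798333-164798533, plus strand: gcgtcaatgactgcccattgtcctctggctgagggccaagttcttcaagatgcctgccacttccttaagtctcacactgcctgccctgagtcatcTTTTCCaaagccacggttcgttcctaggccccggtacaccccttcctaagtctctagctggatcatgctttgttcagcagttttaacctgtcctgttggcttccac
Cd274 intron, chr19:29457987-29458187, plus strand: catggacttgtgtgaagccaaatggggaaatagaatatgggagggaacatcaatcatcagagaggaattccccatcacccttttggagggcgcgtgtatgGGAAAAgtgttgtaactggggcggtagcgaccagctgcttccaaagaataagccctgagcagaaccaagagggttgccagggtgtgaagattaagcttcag
Between Cd274 and Pdcd1lg2, chr19:29474790-29474990, plus strand: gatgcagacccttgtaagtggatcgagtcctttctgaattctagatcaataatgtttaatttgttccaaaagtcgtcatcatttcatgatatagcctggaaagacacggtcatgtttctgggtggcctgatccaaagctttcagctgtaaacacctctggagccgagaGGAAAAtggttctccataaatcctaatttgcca
Icosl downstream, chr10:77549500-77549700, plus strand: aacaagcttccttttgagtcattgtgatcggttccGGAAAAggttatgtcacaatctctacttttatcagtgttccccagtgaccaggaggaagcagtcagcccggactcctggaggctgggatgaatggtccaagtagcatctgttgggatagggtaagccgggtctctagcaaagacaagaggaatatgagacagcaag

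Of the 8 windows, 7 held GGAAAA on one strand or the other, and the exception was the first intronic site of Cd83. The second intronic site of Cd83, the upstream site of Cd40 and the downstream site of Icosl also held the AP-1 motif TGANTCA, and the window in Cd274 held a match to the NF-kB consensus. These windows were picked by their place, so the counts are not rates. GGAAAA lay within 100 bp of 24 of the 36 NFATc2 summits near the 7 genes, against 45.6% of all 9438 summits. Of the nearest sites not printed, that of Pdcd1lg2 held GGAAAA in its window and that of Icosl did not.

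On mm9, Cd80 lies at chr16:38459013-38495821 and Cd86 at chr16:36603955-36666167, Cd40 at chr2:164881127-164898448, Cd83 at chr13:43880476-43898499, Icosl at chr10:77532105-77546000, Cd274 at chr19:29441945-29462585 and Pdcd1lg2 at chr19:29485409-29545647, with Cd86 on the minus strand and the others on the plus strand. The 250 bases before the first transcription start site (TSS) of 4 genes are printed next, to set the genes with the largest H3K4me3 differences beside 2 genes that differed from them in breadth or in the absence of a start-site peak. Capitals mark GGAAAA, the AP-1 motif TGANTCA and the NF-kB consensus, all searched on both strands and none overlapping another here.
Cd83, chr13:43880226-43880475, plus strand: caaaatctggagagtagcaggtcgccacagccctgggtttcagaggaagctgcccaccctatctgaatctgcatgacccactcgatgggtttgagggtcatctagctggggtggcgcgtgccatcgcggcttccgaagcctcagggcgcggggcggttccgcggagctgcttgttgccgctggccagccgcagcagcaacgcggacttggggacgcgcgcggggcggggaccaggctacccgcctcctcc
Cd40, chr2:164880877-164881126, plus strand: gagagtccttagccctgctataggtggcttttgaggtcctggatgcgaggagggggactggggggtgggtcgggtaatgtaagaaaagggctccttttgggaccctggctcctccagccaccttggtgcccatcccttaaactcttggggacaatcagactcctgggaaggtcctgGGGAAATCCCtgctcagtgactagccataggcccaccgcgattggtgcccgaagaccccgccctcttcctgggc
Cd80, chr16:38458763-38459012, plus strand: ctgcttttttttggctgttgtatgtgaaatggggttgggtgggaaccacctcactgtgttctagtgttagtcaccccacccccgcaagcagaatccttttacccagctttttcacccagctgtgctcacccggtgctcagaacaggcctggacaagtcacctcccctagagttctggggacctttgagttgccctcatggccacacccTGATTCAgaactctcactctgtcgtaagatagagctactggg
Pdcd1lg2, chr19:29485159-29485408, plus strand: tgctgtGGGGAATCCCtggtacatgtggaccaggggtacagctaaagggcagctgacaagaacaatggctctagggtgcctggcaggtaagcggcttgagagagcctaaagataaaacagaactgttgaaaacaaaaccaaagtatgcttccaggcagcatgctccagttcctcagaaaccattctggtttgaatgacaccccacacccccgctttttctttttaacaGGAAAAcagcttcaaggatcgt

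Cd83 held none of the 3 motifs in this window. Cd40 held an NF-kB match that began at −74 bp, Cd80 held TGANTCA at −42 bp, and Pdcd1lg2 held an NF-kB match at −244 bp and GGAAAA at −22 bp. Icosl, Cd86 and Cd274 held none. Over 22362 protein-coding promoters of the same length, 20.7% held GGAAAA, 6.01% held TGANTCA and 4.14% held the NF-kB consensus, and among the 7 genes 1, 1 and 2 did. The promoters also differed in CpG content. The ratio of observed to expected CpG in the 1000 bp around the first TSS was 0.729 at Cd83, 0.715 at Icosl, 0.557 at Cd274, 0.357 at Cd40, 0.315 at Cd86, 0.214 at Cd80 and 0.170 at Pdcd1lg2, with a median of 0.549 over all promoters. Of the 7 genes, 6 had an H3K4me3 peak at the first TSS in every list, and the exception, Pdcd1lg2, was the gene with the lowest ratio. The other genes did not follow such an order. Cd80, the next lowest at 0.214, had the most H3K4me3 tags of the 7 in NT, and Cd83, the highest at 0.729, had the fewest.

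The libraries held 16662316 (NT), 21289349 (curdlan), 19468498 (curdlan+FK506) and 14377535 (NFATc2) ChIP tags, and the peak lists held 15799, 14872, 14878 and 9438 peaks. The share of tags inside peaks was 57.9, 52.8 and 51.3% for H3K4me3 and 5.58% for NFATc2. Of 10 DC and myeloid markers, Clec7a (dectin-1), Itgax and Zbtb46 among them, 10 had an H3K4me3 peak in each list. Of 4 fibroblast markers none had one, and 2 of 4 B cell markers, 1 of 3 epithelial markers and at most 2 of 5 T cell markers did. Of 3 macrophage markers, 3 had a peak in NT and in curdlan and 2 in curdlan+FK506. The part of other cell types in the results was not tested.

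Before treatment the 7 genes covered a wide range of the mark. Tags were summed over the peaks that overlap a gene or lie within 1 kb of a TSS and given per 1000000 ChIP tags of the library, written as RPM. In NT cells Cd80 had 281 RPM, Cd274 170, Cd86 119, Icosl 76.0, Cd40 36.3, Pdcd1lg2 19.4 and Cd83 16.4. Neighbours in this order had counting intervals that did not overlap, apart from the last pair, Pdcd1lg2 (17.4 to 21.7) and Cd83 (14.5 to 18.4). All 7 genes had a peak, against 51.4% of protein-coding genes, while in curdlan 6 genes had one (51.2%) and in curdlan+FK506 7 (51%). Cd80 stood at percentile 99.6 of the protein-coding genes with a peak, Cd40 at 35.7 and Cd83 at 12.6. Thus the costimulatory ligand CD80 and the inhibitory ligand PD-L1 were heavily marked in resting D1 cells, whereas Cd83 was among the weakly marked genes.

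**Figure D1:**
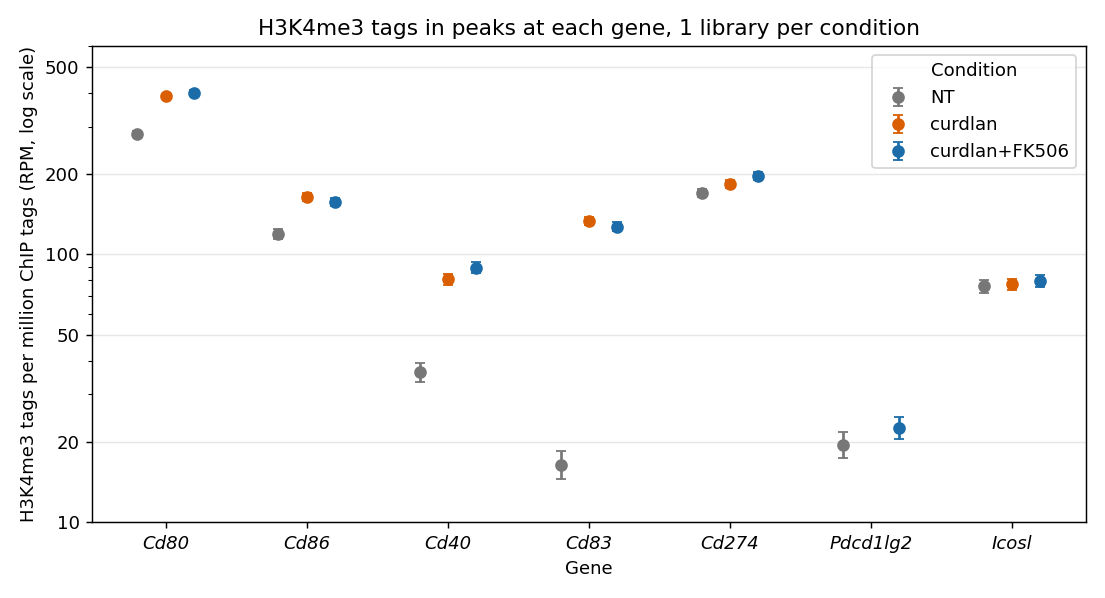
H3K4me3 tags per 1000000 ChIP tags (log scale) in the peaks of each gene, for the NT, curdlan and curdlan+FK506 libraries, with 1 library per condition and 95% Poisson intervals for counting error. Cd83 stands at 16.4 in NT and at 133 and 127 in the treated libraries, Cd40 at 36.3, 80.7 and 89.3, and Icosl between 76.0 and 79.5, and no point is drawn for Pdcd1lg2 in curdlan because no peak was called there.

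After 2 h of curdlan the largest difference was at Cd83, followed by Cd40. Cd83 had 273 tags in NT and 2835 in curdlan, or 16.4 and 133 RPM, a ratio of 8.13 (95% interval 7.18 to 9.24, log2 3.02). These tags were counted in the peak of each library, 2875 bp long in NT and 7005 bp in curdlan, so the ratio does not compare one fixed region. Only 5 of the 13019 genes with a peak in both lists had a larger ratio. Cd40 had 605 and 1717 tags, or 36.3 and 80.7 RPM, a ratio of 2.22 (2.02 to 2.44). These 2 of 6 genes with a peak in both lists were 1.5-fold or more higher, against 2.58% of all genes, and none was 1.5-fold lower, against 3.96%.

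The remaining ligands differed less. Cd80 had 281 and 389 RPM, a ratio of 1.38 (1.34 to 1.44), and Cd86 had 119 and 163, a ratio of 1.37 (1.30 to 1.45). Cd274 had 170 and 183, a ratio of 1.08 (1.03 to 1.13). Icosl had 76.0 and 77.4, a ratio of 1.02 (0.945 to 1.10), an interval that includes 1. The median ratio was 1.38 over the 6 genes and 0.913 over all genes, a shift of −0.13 on the log2 scale. Relative to that shift the ratios were 8.91 for Cd83, 2.43 for Cd40, 1.52 for Cd80, 1.51 for Cd86, 1.18 for Cd274 and 1.11 for Icosl, so that 4 genes instead of 2 were past 1.5-fold, against 3.77% of all genes, and none was lower, against 1.87%.

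The fold enrichment, which MACS computes for each peak over the local background of its own input, gave a different order. It was 24.8 in NT and 81.5 in curdlan at Cd83, 30.0 and 89.1 at Cd86, 27.8 and 54.6 at Cd274, 51.6 and 81.2 at Cd80, 79.7 and 110 at Icosl, and 40.8 and 48.5 at Cd40. The median ratio of fold enrichment over all genes was 1.66. The ratio was above that median at Cd83 (3.28), Cd86 (2.97) and Cd274 (1.96), and below it at Cd80 (1.57), Icosl (1.38) and Cd40 (1.19). By this measure 4 of 6 genes were 1.5-fold or more higher, but so were 60.3% of all genes, and none was lower, against 1.19%. Relative to the median the ratio was 1.98 at Cd83, 1.79 at Cd86, 1.19 at Cd274, just under 1 at Cd80, 0.835 at Icosl and 0.717 at Cd40, so that 2 of 6 genes were higher, against 14.6%. Cd83 was thus higher in both measures, while the direction for Cd40, Cd80 and Icosl depends on the measure. The ChIP library held 1.38 times the tags of its input in NT and 2.29 times in curdlan, and the part of this difference in the fold enrichment was not tested.

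**Figure D2:**
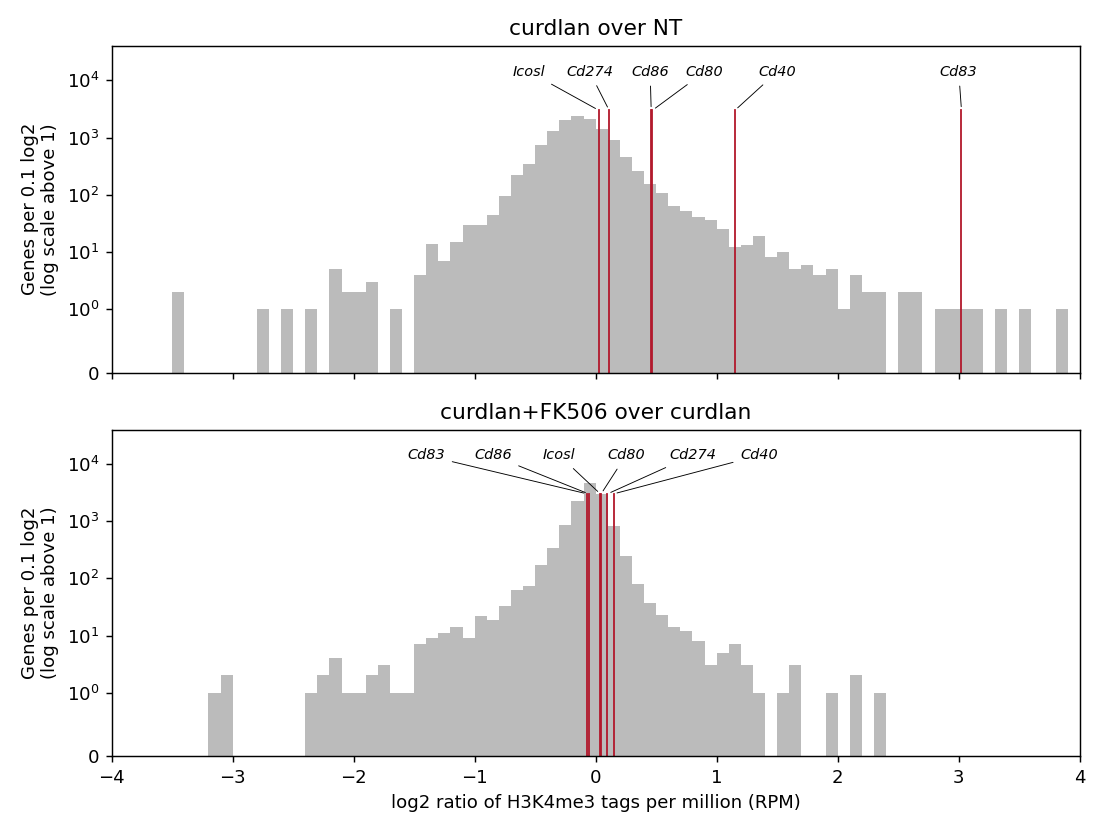
Distribution of the log2 ratio of H3K4me3 RPM over all genes with a peak in both lists (grey bars, number of genes per 0.1 log2, log scale above 1), for curdlan over NT and curdlan+FK506 over curdlan, with red lines for 6 of the genes. In the upper panel Cd83 lies at 3.02 and Cd40 at 1.15, in the lower panel all 6 lie between −0.07 and 0.15, and 1 gene in the upper and 3 genes in the lower panel lie outside the plotted range.

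The peaks also differed in breadth. The Cd83 peak was 2875 bp long in NT and 7005 bp in curdlan, and the difference lay mainly inside the gene, since its downstream edge stood 2080 bp from the first TSS in NT and 5885 bp in curdlan, while its upstream edge stood at −794 and −1119 bp. Among all peaks of its list it ranked 5392 by length in NT and 386 in curdlan. Divided by peak length, Cd83 had 5.70 RPM per kb in NT and 19.0 in curdlan, a ratio of 3.34, against a median of 0.882 over all genes. Thus both the density of tags and the length of the peak were higher.

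Cd40 had a peak of 2847 bp in NT and 4192 bp in curdlan, with 12.8 and 19.2 RPM per kb, a ratio of 1.51. For Cd80, Cd86, Cd274 and Icosl the ratio per kb was 1.20, 1.10, 1.01 and 0.981. The length was 12856 and 14835 bp at Cd80, 5225 and 6507 bp at Cd86, 7848 and 8415 bp at Cd274 and 4337 and 4496 bp at Icosl. The median ratio of length over the 6 genes was 1.20, against 1.03 over all genes.

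Cd80 carried one of the broadest H3K4me3 domains in these cells. Its peak ranked 6 of 15799 by length and 14 by tags in NT, and 4 of 14872 by length and 3 by tags in curdlan. In NT it reached from −7947 to 4908 bp around the first TSS, and in curdlan from −8360 to 6474 bp. Its summit stood at −1194 bp in NT, −1050 bp in curdlan and 244 bp in curdlan+FK506. With only peaks whose summit lies inside the gene or within 1 kb of a TSS, Cd80 therefore had no ratio in any comparison. The peak of Cd274 also extended far into its gene, with its summit 4362 bp after the TSS in NT and 4380 bp in curdlan.

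**Figure D3:**
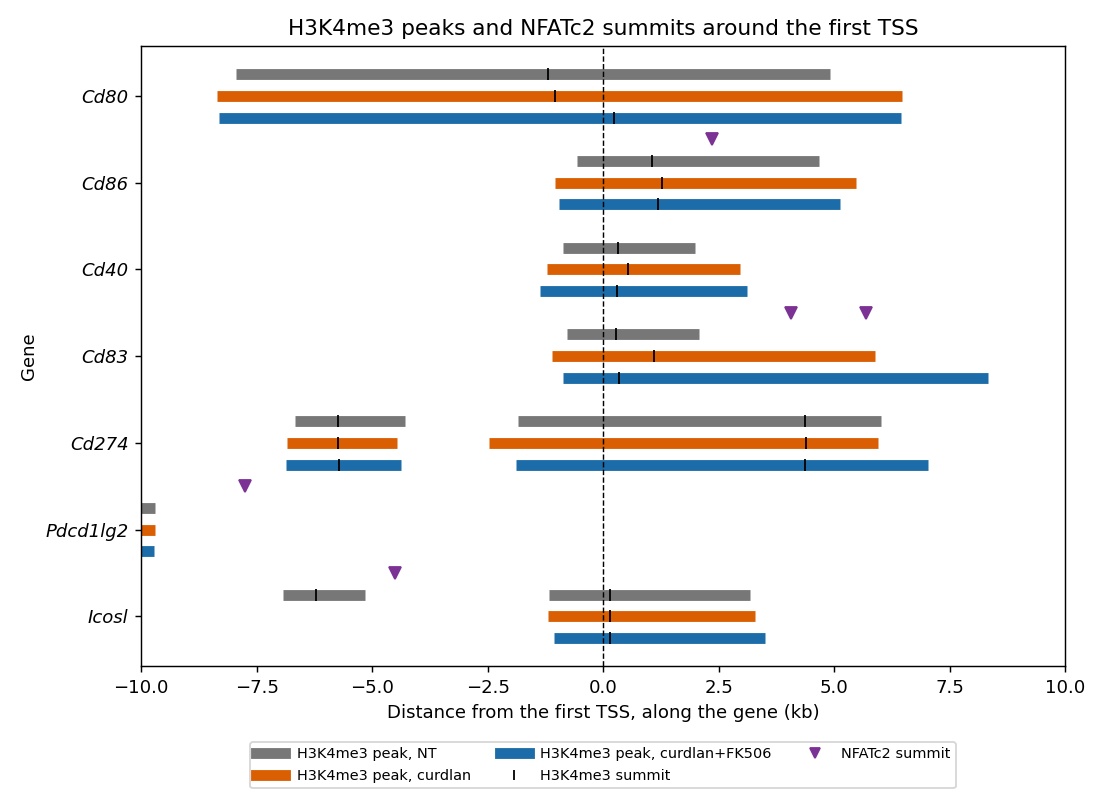
Extent of the H3K4me3 peaks (bars) and their summits (black ticks) in NT, curdlan and curdlan+FK506, with NFATc2 summits as triangles, by distance in kb from the first TSS of each gene along its direction of transcription. The Cd83 peak ends 2080 bp after the TSS in NT, 5885 bp in curdlan and 8336 bp in curdlan+FK506, and the pair of NFATc2 summits in Cd83 lies outside the NT peak and inside the other 2. Bars are cut at 10 kb.

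With FK506 added to curdlan the tags at these genes were close to those with curdlan alone. Cd83 had 133 RPM with curdlan and 127 with curdlan+FK506, a ratio of 0.953 (0.903 to 1.01). Cd86 had 163 and 157, a ratio of 0.961 (0.915 to 1.01), and Icosl had 77.4 and 79.5, a ratio of 1.03 (0.958 to 1.10). These 3 intervals include 1. The ratio was 1.11 (1.04 to 1.18) at Cd40, 1.07 (1.02 to 1.12) at Cd274 and 1.03 (1.00 to 1.06) at Cd80. Of the 6 genes 0 were 1.5-fold or more higher, against 0.516% of all genes, and 0 were lower, against 1.67%. Relative to the median of all genes the counts were also 0 and 0, against 0.592 and 1.45%. The median ratio was 1.03 over the 6 genes and 0.971 over all 12996 genes. At these counts a 1.5-fold difference would lie outside every one of the 6 intervals, but the spread between cultures is not known.

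Fold enrichment did not give the same picture. Between curdlan and curdlan+FK506 it was 48.5 and 98.8 at Cd40 (ratio 2.04), 54.6 and 30.7 at Cd274 (0.562), 81.2 and 54.0 at Cd80 (0.665), 110 and 78.5 at Icosl (0.713), 89.1 and 72.8 at Cd86 (0.817) and 81.5 and 74.8 at Cd83 (0.919). Its median ratio over all genes was 0.830. By this measure 1 of 6 genes was 1.5-fold or more higher, against 6.01% of all genes, and 2 were lower, against 28.5%. Relative to the median Cd40 alone was past 1.5-fold (2.46), against 14.2% of all genes that were higher. Thus Cd80, Cd274 and Icosl were slightly higher in RPM and lower in fold enrichment, also relative to the median, and Cd83, slightly lower in RPM, was at 1.11 relative to the median, so that the direction for these 4 genes depends on the measure.

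Cd83 had fewer tags per kb with FK506 but a longer peak. The peak was 7005 bp in curdlan and 9207 bp in curdlan+FK506, where it ranked 86 of 14878 by length. Its downstream edge lay 2.45 kb further into the gene, at 8336 bp. RPM per kb were 19.0 and 13.8, a ratio of 0.725 where the median of all genes was 0.991. For the other 5 genes the ratio per kb was between 1.01 and 1.04. An edge is set by the peak caller, and its error is not known with 1 library per condition.

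Set directly beside NT, curdlan+FK506 had the same 2 genes past 1.5-fold. Cd83 had 16.4 and 127 RPM, a ratio of 7.75 (6.83 to 8.81), and Cd40 had 36.3 and 89.3, a ratio of 2.46 (2.24 to 2.70). Against 1.68% of all genes, 2 of 7 genes were higher, and none was lower against 4.99%. The ratio was 1.43 at Cd80, 1.32 at Cd86, 1.16 at Cd274, 1.16 (1.00 to 1.34) at Pdcd1lg2 and 1.05 at Icosl, with a median of 0.883 over all genes, or −0.18 on the log2 scale. Relative to this median Cd80 also passed 1.5-fold, at 1.62, and Cd86 stood just under the threshold, so that 3 of 7 genes were higher, against 3.02% of all genes, and none lower, against 1.95%. By fold enrichment the ratio was 3.02 at Cd83, 2.43 at Cd86, 2.42 at Cd40, 1.65 at Pdcd1lg2, 1.10 at Cd274, 1.05 at Cd80 and 0.985 at Icosl, which put 4 of 7 genes 1.5-fold or more higher, against 40.2% of all genes, and none lower, against 3%. Relative to its median of 1.37 it was 2.20 at Cd83, 1.77 at Cd86 and 1.77 at Cd40, 3 of 7 genes against 13.9%, while Cd274 (0.806), Cd80 (0.765) and Icosl (0.720) were lower. This comparison shares the NT library with the first and the curdlan+FK506 library with the second, so the 3 are not independent.

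Pdcd1lg2 differed from the other genes in having no H3K4me3 peak at its start. Its one peak was intragenic, with a summit 43942 bp after the TSS in NT, and it held 324 tags in NT (3642 bp) and 438 in curdlan+FK506 (4011 bp). No peak was called there in curdlan, and the tags below the threshold of the caller are not in the list. Therefore no ratio to curdlan can be given, and all counts for curdlan are over 6 genes. A pair of other weak peaks near these genes had the same pattern of NT and curdlan+FK506 without curdlan. One lay with its summit at −11888 bp from Cd274 in NT, with 149 and 114 tags. The other lay 17640 bp after the start of Icosl, with 114 and 151 tags. The FDR in NT and curdlan+FK506 was 2.79 and 11.9% for the peak before Cd274 and 1.11 and 4.19% for the peak after Icosl. At an FDR limit of 5% the pattern held for the Icosl peak alone. Among all 15799 NT peaks, 435 (2.75%) overlapped a peak in curdlan+FK506 and none in curdlan, with a median of 88 tags, and 512 (3.24%) overlapped one in curdlan and none in curdlan+FK506.

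A separate H3K4me3 peak lay upstream of Cd274. With its summit at −5734 bp from the Cd274 TSS in NT, it held 835 tags in NT, 799 in curdlan and 773 in curdlan+FK506. These were 50.1, 37.5 and 39.7 RPM. This peak was thus lower in both treated libraries, while the peak at the Cd274 start was higher in both, at 183 and 196 against 170. The upstream peak was not counted for the gene because it lies beyond 1 kb from the TSS. With a window of 5 kb it was counted, and the log2 ratio of Cd274 for curdlan over NT was 0.0066 instead of 0.11. The fold enrichment of the upstream peak was 24.4, 77.8 and 51.4, so that the direction again depends on the measure.

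After 30 min of curdlan an NFATc2 summit lay near all 7 genes. A summit lay within 100 kb of a TSS of all 7, against 55.3% of protein-coding genes, within 30 kb of 6, against 30.2%, and within 20 kb of 6, against 24.1%. From first TSSs alone it was again 7, against 53.7%. Within 1 kb it was 0 of 7, against 5.29%, a share too small for this count to set the genes apart. The 36 distinct summits held between 26 and 506 tags, with a median of 89, where the median over all NFATc2 peaks was 63. Of the 36, 18 lay in introns and 2 in exons of a protein-coding gene, and 16 lay between such genes. The genes counted here include neighbours such as Casr, Ildr1 and Pla1a. For 15 of the 36 the nearest annotated gene was one of the 7.

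**Figure D4:**
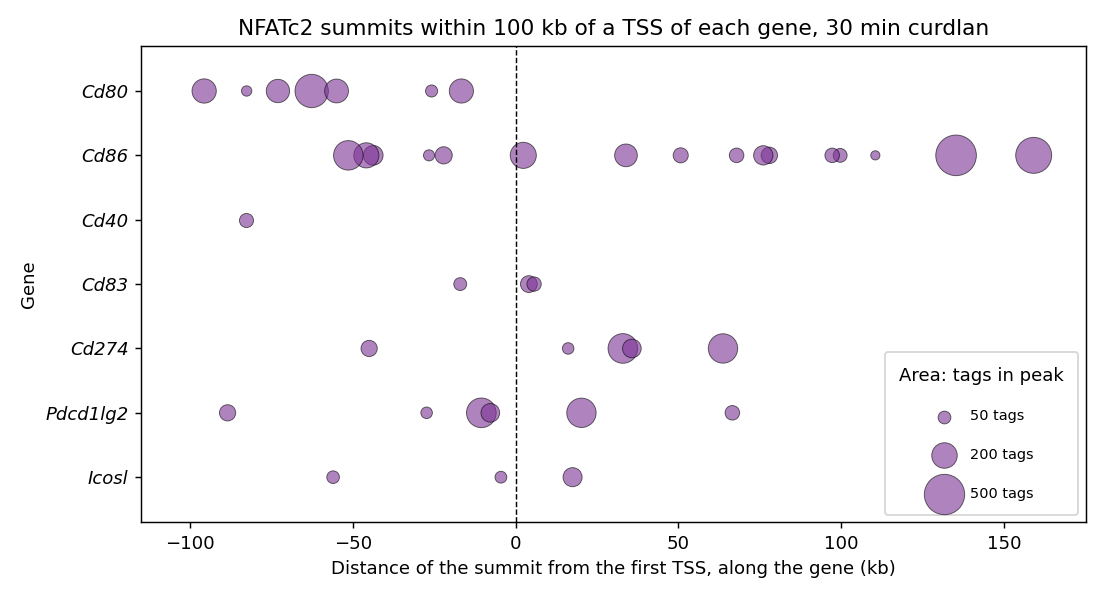
Position of NFATc2 summits within 100 kb of any TSS of each gene after 30 min of curdlan, in kb from the first TSS along the direction of transcription, with the area of each circle proportional to the tags in the peak (26 to 506). Cd86 has 16 summits spread over its locus, Cd40 has 1, and no circle lies within 1 kb of a TSS, and the 5 summits shared by Cd274 and Pdcd1lg2 are drawn for both.

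The number of sites differed widely between the genes. Cd86 had 16 summits, Cd80 7, Pdcd1lg2 6, Cd274 5, Cd83 3, Icosl 3 and Cd40 1, and the median was 5, against 1 over all protein-coding genes. Cd86 has 5 annotated TSSs that span 61562 bp, which widens its window. Counted from the first TSS alone it had 13 summits. Only 1 of the 16 lay within 5 kb of a TSS. Cd274 and Pdcd1lg2 are neighbours on chromosome 19 and share 5 summits.

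The nearest site to Cd86 was in its own intron, 2361 bp after the first TSS and 2268 bp before another, and its peak held 209 tags. It is the first sequence printed above, and it was the only one of the nearest sites that lay inside an H3K4me3 peak in all 3 lists. The tallest peak of the Cd86 locus, with 506 tags, lay in an intron of Casr, a calcium-sensing receptor gene, and was inside an H3K4me3 peak in curdlan and in curdlan+FK506 but not in NT. At Cd80 all 7 summits were upstream, and none had Cd80 as its nearest annotated gene, which was Popdc2, Pla1a or Gm17497. The summit nearest to Cd80, with 179 tags, lay 16.6 kb before its TSS and 983 bp from a TSS of Gm17497. The tallest, with 341 tags, lay in an exon of the neighbouring gene Pla1a.

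In Cd83 a pair of summits lay in an intron, 4072 and 5676 bp after the first TSS, with 87 and 63 tags. Both were outside the H3K4me3 peak of NT, which ended at 2080 bp, and inside the longer peaks of curdlan and curdlan+FK506. The broader Cd83 peak therefore took in the bound positions. NFATc2 binding in NT cells or with FK506 was not analysed here, so the sites are given for curdlan alone.

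Icosl, Pdcd1lg2, Cd274 and Cd40 had their nearest sites between genes or further from the TSS than those of Cd86 and Cd83. Icosl had a summit 4.50 kb before its TSS with 43 tags, and another 17.5 kb after the start with 112 tags, which lay in the weak H3K4me3 peak present in NT and curdlan+FK506. Between Cd274 and Pdcd1lg2 a site of 270 tags lay 10.5 kb before the TSS of Pdcd1lg2. It lay inside a small H3K4me3 peak called in NT (166 tags, 9.96 RPM), curdlan (201 tags, 9.44 RPM) and curdlan+FK506 (165 tags, 8.48 RPM). The FDR of this peak was 15.4% in NT and 14.3% in curdlan+FK506, against 0.12% in curdlan. At an FDR limit of 5% it was thus kept in curdlan alone. A second site, 7.76 kb before Pdcd1lg2, held 107 tags and was the nearest to that gene. Its peak p-value was 8.6e-07. Cd274 had its nearest site 16.1 kb after the TSS in its own intron, with 41 tags and a peak p-value of 2.7e-06. Cd40 had a single site, 82.7 kb upstream in an intron of Slc12a5, a neuronal transporter gene, with 61 tags and a peak p-value of 8.9e-07. This peak, at the only summit counted for Cd40, is the one that brought the number of genes to 7, since with a p-value of 1e-10 or less Cd40 had no site. At that limit the nearest site moved to 32.9 kb for Cd274 and to 10.5 kb for Pdcd1lg2, the site of 270 tags in both cases, and kept its distance for the other 4 genes.

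Across the 36 summits GGAAAA was found within 100 bp of 24 (66.7%, 95% Wilson interval 50.3 to 79.8%), against 45.6% of all 9438 summits. With 50 bp the count was 20, against 32.9%, and with 250 bp it was 27, against 61.7%. TGANTCA was found at 9 (25.0%, 13.8 to 41.1%), against 21.8%, and the NF-kB consensus at 2, against 3.46%. Inside H3K4me3 peaks lay 5 of the summits in NT, 8 in curdlan and 8 in curdlan+FK506, where the shares over all summits were 23.8, 23.3 and 22.5%. Summits of one locus are not independent of each other, so these shares are given as a description.

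Genes that act with the 7 were examined in 4 lists, by RPM alone and not by fold enrichment. Among 16 related ligands, 2 of the 10 with a peak in both lists were 1.5-fold or more higher in curdlan than in NT, Pvrl2 (2.47) and Pvr (1.91), ligands of the CD226 and TIGIT receptors. Among 10 genes of CD40 signalling, 3 of 10 were higher, the adaptors Traf1 (2.26) and Traf6 (1.54) and the NF-kB subunit Nfkb2 (1.56). Among 10 maturation genes, 4 of 8 were higher, the chemokines Ccl22 (5.15) and Ccl17 (2.33), the cytoskeletal regulator Marcksl1 (4.30) and the lymph node homing receptor Ccr7 (1.86). In NT these 4 had 125, 435, 26 and 72 tags, in the same order, so some of the ratios rest on few tags. None was lower in these 3 lists. Of 13 genes for T cell partners of such molecules, all receptors but the CD40 ligand, 3 had a peak and none passed 1.5-fold. Over all genes the shares were 2.58% higher and 3.96% lower. These counts leave out genes with a peak in 1 list only, such as Tnfsf14 (1064 tags in curdlan) and Cd70 (139 tags), both ligands of the TNF family without a peak in NT, which were chosen for mention after their values were seen.

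With FK506, 4 genes of these lists were 1.5-fold or more lower than with curdlan alone, where the share over all genes was 1.67%. Tnfsf14 (LIGHT) had a ratio of 0.202 and 4632428N05Rik (VISTA, an inhibitory ligand) 0.580, 2 of 11 related ligands. Ccr7 had 171 and 72 tags, a ratio of 0.460, and Marcksl1 143 and 74, a ratio of 0.566, 2 of 8 maturation genes. None of the 10 genes of CD40 signalling passed 1.5-fold in this comparison, and none of the 4 lists had a gene past 1.5-fold in the higher direction. None of the 6 costimulation genes was lower, a count that this share does not set apart, and the difference between them and the lists was not tested.

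The pattern across the 3 libraries was compared with that of 31 genes of these lists that had a peak in every list, by the Euclidean distance in the pair of log2 ratios (curdlan over NT and curdlan+FK506 over curdlan). The gene most like Cd40 was Traf1 (distance 0.08), which had 68.0, 154 and 180 RPM where Cd40 had 36.3, 80.7 and 89.3. The gene most like Cd83 was Ccl22, at the larger distance of 0.69. Cd80 was nearest to Havcr2 (0.12) and Icam1 (0.16), and Cd86 to Il4i1 (0.08) and Cd276 (0.14). Cd274 was nearest to Traf2 (0.0146) and Traf5 (0.08), and Icosl to Traf5 (0.06) and Marcks (0.11). The second nearest were Pvrl2 for Cd40 (0.37) and Marcksl1 for Cd83 (1.19), so that no listed gene came close to Cd83.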

How the data were processed

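The 4 peak lists were used. According to the labels, the authors mapped single-end reads to mm9 with Bowtie, and per the file headers they called peaks in each library alone with MACS 1.4.2 against its input, at a p-value limit of 1e-05 and with single tags per position. The deposited lists give each peak's position and length, a count of tags that is not normalized, a p-value as −log10 multiplied by 10, a fold enrichment (a ratio to the local input background) and an FDR in percent. The depth of the input differed between libraries, and its part in the fold enrichment was not tested.

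Counts were summed over peaks that overlap a gene by at least 1 bp or lie within 1 kb of a TSS, and given per 1000000 ChIP tags of the header total (RPM). Genes, TSSs and sequences came from NCBI build 37 (mm9) with the Ensembl release 65 annotation, in which VISTA is 4632428N05Rik. Counts have exact 95% Poisson intervals and ratios exact conditional binomial intervals. Each count covers the peak as called in its own library, so a ratio can compare regions of different length, which the intervals do not cover. Tags of 1 library are not replicates, so no test was made, and 1.5-fold was used as a threshold of size. The 7 genes are all named. Genes of other lists are named if past 1.5-fold, at most 10 per comparison, and likeness names the nearest 2. The genes and lists were chosen with earlier results of these data known. Alternatives covered the threshold, windows, p-value, FDR, scaling and measure. Scripts used Python 3.11.15, numpy 2.4.6, pandas 2.3.3 and scipy 1.17.1 and passed 6 of 6 checks on simulated data.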

Additional observations from a re-analysis of the deposited data

How the results depend on the processing

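The number of genes past 1.5-fold for curdlan over NT was 2. It was 4 after centring on the median of all genes, 4 by MACS fold enrichment (60.3% of all genes were higher) and 2 by centred fold enrichment, an alternative added after the data were seen. For curdlan+FK506 over curdlan it was 0, also after centring, and 3 by fold enrichment (Cd40 higher, Cd80 and Cd274 lower, against 6.01 and 28.5% of all genes) or 1 (Cd40) by centred fold enrichment. For curdlan+FK506 over NT it was 2, and 3 after centring, 4 by fold enrichment (40.2% of all genes were higher) and 3 by centred fold enrichment. With centred fold enrichment the direction turned for curdlan over NT at Cd40 (0.717, log2 −0.48), Cd80 (log2 −0.07) and Icosl (−0.26), for curdlan+FK506 over NT at Cd80 (−0.39), Cd274 (−0.31) and Icosl (−0.47), and for curdlan+FK506 over curdlan at Cd80 (−0.32), Cd274 (−0.56), Icosl (−0.22) and Cd83 (0.15). The median log2 ratio of fold enrichment over all genes was 0.73, −0.27 and 0.45 for curdlan over NT, curdlan+FK506 over curdlan and curdlan+FK506 over NT. NFATc2 summits numbered 36 within 100 kb, 33 from first TSSs alone (also added later), 19 within 30 kb and 15 within 20 kb, and within 1 kb no gene had one. The deposited totals already followed the duplicate limit, so that alternative changed no value. No paired analysis was possible because each condition had 1 library. Weak peaks limit what can be read at the H3K4me3 peak of Pdcd1lg2 and at the nearest NFATc2 sites of Cd40, Cd274 and Pdcd1lg2. The same holds for the small H3K4me3 peak between Cd274 and Pdcd1lg2.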
